A study of Camelus dromedarius with 10 samples.

Results

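The genes described here are SYT4, SYT9, SYN3, SV2C and UNC13A, which encode proteins of vesicle exocytosis, in the supraoptic nucleus (SON) of the dromedary camel (Camelus dromedarius). They are 5 of the 22444 gene IDs in the count table, and each was found by its Ensembl ID. The 5 genes were singled out by the study's own comparison of control and dehydrated camels, made on these same libraries, so every difference between the groups given for them is a description and is not offered as a test. RNA was taken from the rostral SON of male, ranch-housed camels aged 4-5 years. Control camels (n = 5) drank freely, and camels of the other group (n = 5) received no water for 20 days (water deprivation, WD). Both groups were fed, and no allele or drug distinguished them.

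Regulated exocytosis joins a vesicle to the plasma membrane when calcium enters the cell. UNC13 proteins prime docked vesicles by opening syntaxin for SNARE assembly, synaptotagmins bind the vesicle to membrane and in many cases sense calcium, SV2 proteins are vesicle glycoproteins that interact with synaptotagmins, and synapsins tether vesicles to each other and to actin. Magnocellular neurones of the SON use this machinery to empty the large dense-core granules that hold vasopressin and oxytocin, both at axon terminals in the posterior pituitary and from dendrites within the nucleus. Bulk RNA of the nucleus holds transcripts of the neuronal cell bodies, glia and vessels, and in such samples a change in the number of cells of a type and a change in RNA per cell cannot be told apart.

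Between 1665098 and 8126641 read pairs were counted on genes in a library. Because 5 gene IDs took from 27.7% to 76.1% of a library, the read pairs left for all other genes ran from 397495 in CON13 and 1106575 in WD6 to 5872137 in WD9. Levels are given as CPM (read pairs per 1e+06, scaled by library) after TMM normalization, and 1 read pair was worth 1.20 CPM in CON13, 0.475 CPM in WD6 and 0.0864 CPM in WD9. The precision of low values is therefore poorest in CON13. The deposited values carry no gene lengths, so the levels of different genes are not compared with each other. Errors are SD over the 5 libraries of a group. Of the 14432 genes that passed the filter on low counts, 72 (0.499%) differed between the groups at an adjusted p of at most 0.05 in edgeR's quasi-likelihood test, 39 of them higher in WD (0.27%) and 33 lower (0.229%). The median log2 fold change of all genes was 0.02.

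All 5 genes passed the filter. SYT4, SYN3, SV2C and UNC13A were higher in WD than in control camels and SYT9 was lower. In the edgeR test, 2 of the 5 (SYT9 and SYN3) were past the threshold, beside the 0.499% of all genes, and in DESeq2's Wald test all 5 were, beside 1.27% of all genes (209 of 16447). The libraries of the groups did not overlap for 3 of the 5 (SYT9, SYN3 and UNC13A), beside 2.62% of all genes (1.34% with WD above control and 1.27% with WD below). Since the members were picked by this contrast, nothing is read from these shares.

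SYT9 encodes a synaptotagmin that senses calcium and is found on synaptic and dense-core vesicles (ENSCDRG00005013569). In control camels its level was 35.0 CPM in CON2, 44.2 in CON3, 60.6 in CON4, 78.2 in CON5 and 44.2 in CON13. In WD camels it was 18.5 CPM in WD6, 25 in WD7, 22.3 in WD8, 27.3 in WD9 and 16.3 in WD15. Every WD library lay below every control library, and the controls were the more scattered group, with CON5 the highest. The mean was 52.4 ± 17.1 CPM in control and 21.9 ± 4.54 CPM in WD libraries (SD, n = 5 each), which is a log2 fold change of -1.26 (SE 0.23), or 0.417 times the control level. Leaving out 1 library at a time gave log2 fold changes from -1.41 to -1.06, and without CON5 the gene was no longer past the threshold.

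SYT4 encodes a synaptotagmin of dense-core granules whose first calcium-binding domain carries a substitution that weakens calcium binding (ENSCDRG00005003658). Its control levels were 86.4 CPM in CON2, 132 in CON3, 186 in CON4, 122 in CON5 and 92.1 in CON13. The WD levels were 191 CPM in WD6, 274 in WD7, 153 in WD8, 394 in WD9 and 208 in WD15. The groups overlapped by a single pair of libraries, since WD8 was below CON4 and the other WD libraries were above all controls. The means were 124 ± 40.0 and 244 ± 94.6 CPM (SD, n = 5 each), with a log2 fold change of 0.97 (SE 0.26). With single libraries left out, this estimate ran from 0.72 to 1.15. The SYT4 level was not past the edgeR threshold, and it was past it with the RNA integrity number as a covariate (log2 fold change 1.19, SE 0.19).

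The synaptotagmins thus lay on opposite sides of the comparison. The ratio of their 2 counts in a library can be compared between libraries without any scaling. Per read pair counted on SYT9, SYT4 had 2.47 read pairs in CON2, 2.99 in CON3, 3.08 in CON4, 1.56 in CON5 and 2.08 in CON13. In WD libraries the ratio was 10.3 in WD6, 11 in WD7, 6.87 in WD8, 14.4 in WD9 and 12.8 in WD15. The lowest WD ratio was above the highest control ratio, and the WD median was 4.44 times the control median. The overlap of the groups in SYT4 itself was absent from the ratio. The study's comparison picked SYT4 as higher and SYT9 as lower in these same libraries. Direction and much of the separation of the ratio follow from that choice, so it adds no support. Within the groups, SYT4 and SYT9 levels leaned the same way (Pearson r = 0.59 over 10 libraries after removal of the group means), and both leaned with depth (r = 0.63 for SYT4 and 0.57 for SYT9 against log2 of the counts outside the dominant IDs). At each of these 10 points both genes come from the same library, and the part of depth in the levels was not tested. With log2 depth as a covariate, the log2 fold change was 0.82 (SE 0.21) for SYT4 and -1.36 (SE 0.19) for SYT9.

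**Figure D1:**
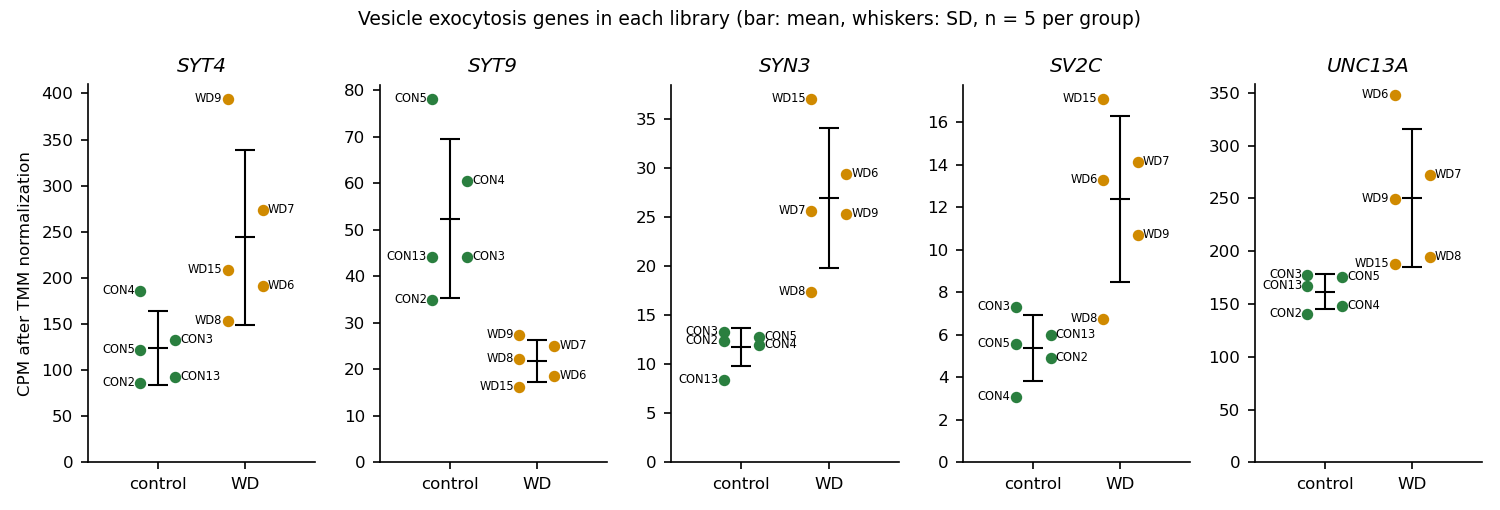
Level of each gene (y axis, CPM after TMM normalization, starting at 0 and with its own scale in each panel) in the control and WD libraries (x axis). Points are libraries, labelled by name, and bars with whiskers are the mean ± SD of 5 libraries. All WD points of SYT9 lie below the control points, all WD points of SYN3 and UNC13A lie above them, and WD8 falls among the controls for SYT4 and SV2C.

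SYN3 encodes synapsin III, the synapsin best known from developing neurones (ENSCDRG00005015679). Its control levels were 12.4 CPM in CON2, 13.2 in CON3, 11.9 in CON4, 12.7 in CON5 and 8.37 in CON13. The WD levels were 29.4 CPM in WD6, 25.6 in WD7, 17.4 in WD8, 25.3 in WD9 and 37.1 in WD15. All WD libraries were above all controls, and 4 controls lay within a narrow band with CON13 below it. The CON13 value rests on 7 read pairs, with an exact Poisson 95% interval of 3.37 to 17.2 CPM that takes in the other controls and covers counting error only. The means were 11.7 ± 1.94 CPM in control and 27.0 ± 7.16 CPM in WD libraries (SD, n = 5 each), a log2 fold change of 1.15 (SE 0.22). The log2 fold change stayed between 1.0 and 1.25 when single libraries were left out, but the gene remained past the threshold in only 3 of these 10 fits (those without CON13, WD6 or WD8). In other mammals an intron of SYN3 holds TIMP3 on the opposite strand. The strand setting of the counting and the exon coordinates are not given in the sources used here. Whether SYN3 and TIMP3 share reads therefore cannot be told. TIMP3, named for this reason after its values were seen, had 72.1 to 131 CPM in control and 72.6 to 124 CPM in WD libraries, and its groups overlapped.

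SV2C encodes one of the 3 SV2 glycoproteins and is the one with the most restricted expression in the brain, in the basal ganglia and parts of the hypothalamus among other places (ENSCDRG00005001113). It was counted with few read pairs, between 5 and 38 in a control library and between 28 and 124 in a WD library. Control levels were 4.91 CPM in CON2, 7.33 in CON3, 3.10 in CON4, 5.56 in CON5 and 5.98 in CON13. WD levels were 13.3 CPM in WD6, 14.2 in WD7, 6.76 in WD8, 10.7 in WD9 and 17.1 in WD15. WD8 fell below CON3, and the other 4 WD libraries were above every control. With means of 5.38 ± 1.55 and 12.4 ± 3.89 CPM (SD, n = 5 each), the log2 fold change was 1.24 (SE 0.31) and was not past the edgeR threshold. The 5 read pairs of CON13 give an exact Poisson 95% interval of 1.94 to 14.0 CPM, which reaches into the range of the WD libraries.

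UNC13A encodes the priming factor Munc13-1, whose C1 domain binds diacylglycerol (ENSCDRG00005013982). Control levels were close to each other, at 140 CPM in CON2, 177 in CON3, 148 in CON4, 175 in CON5 and 167 in CON13. WD levels were 347 CPM in WD6, 272 in WD7, 195 in WD8, 249 in WD9 and 188 in WD15. The groups did not overlap, although WD15 exceeded CON3 only slightly, and the WD libraries were far more spread than the controls. The means were 162 ± 16.7 and 250 ± 65.1 CPM (SD, n = 5 each). At 0.63 (SE 0.19) its log2 fold change was the smallest in size of the 5 genes, and it was not past the edgeR threshold. The highest value came from WD6, a library of low depth, and without WD6 and CON13 the log2 fold change was 0.48 (SE 0.17).

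The WD libraries did not keep one order across the genes. WD8 was the lowest of them for SYT4, SYN3 and SV2C, WD15 was the lowest for SYT9 and UNC13A, and the highest was WD9 for SYT4 and SYT9, WD15 for SYN3 and SV2C and WD6 for UNC13A. Over the 10 libraries and after removal of the group means, SYN3 and SV2C had r = 0.57, and the other pairs apart from SYT4 with SYT9 had r between -0.34 and 0.35. At each point both genes share the library with its depth and scaling, and these values are descriptions.

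Read against SYT9 in the same library, the remaining genes showed the same separation as SYT4. SYN3 had between 0.163 and 0.354 read pairs per SYT9 read pair in control libraries and between 0.779 and 2.28 in WD libraries, and the medians differed 5.21 times. For SV2C the ratio was 0.0511 to 0.166 in control and 0.303 to 1.05 in WD libraries, with medians 4.19 times apart. For UNC13A it was 2.24 to 4.01 and 8.74 to 18.8, with medians 2.87 times apart. The scaling of libraries has no part in these ratios. Their direction and much of their separation follow from the choice of members, SYT9 as lower and the others as higher in these same libraries, so they add no support. Their absolute size depends on gene length and is not interpreted.

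**Figure D2:**
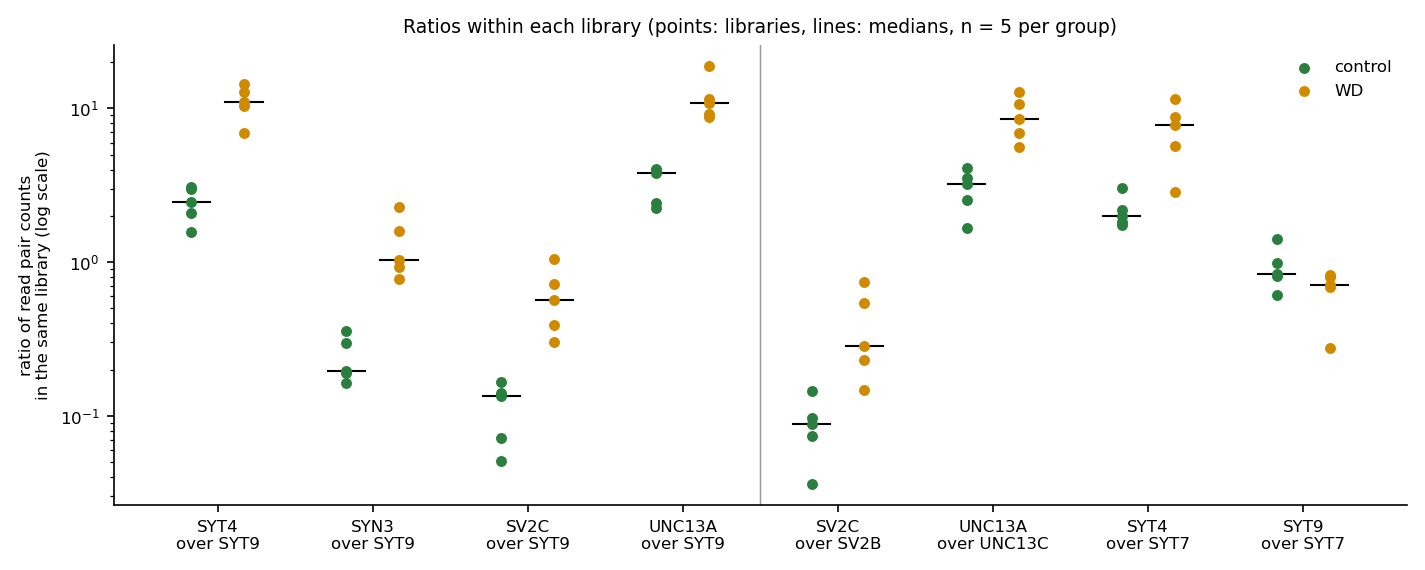
Ratio of the read pair counts of 2 genes in the same library (y axis, log scale) for 8 gene pairs (x axis), with control libraries in green, WD libraries in orange and the median of each group as a line (n = 5 per group). Left of the vertical line each gene is set over SYT9 and the groups do not overlap. Right of it, genes are set over a relative of their own family, and the groups overlap for SYT4 over SYT7 and SYT9 over SYT7.

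SV2C, UNC13A, SYT4 and SYT9 were also set against a relative of their own family in the same library, in ratios chosen after the data had been seen. The relatives SV2B, UNC13C and SYT7 had an ID only through a table ordered by the study's own p-values for this comparison. Members and relatives were thus both picked by the comparison, and the separation of the groups in these ratios adds no support. SV2B, a broadly expressed neuronal SV2 protein, had 55.3, 50.6, 86.3, 75.5 and 62.2 CPM in CON2, CON3, CON4, CON5 and CON13 and 24.7, 50.0, 45.8, 46.4 and 22.9 CPM in WD6, WD7, WD8, WD9 and WD15. All WD libraries were below all controls, which is the reverse of SV2C, and SV2B was not past the threshold (log2 fold change -0.79, SE 0.24). SV2C over SV2B was 0.0359 to 0.145 in control and 0.148 to 0.745 in WD libraries, with medians 3.19 times apart. The gap between the groups in this ratio was small, between CON3 and WD8.

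UNC13C, the Munc13-3 of a few brain regions, had 39.9, 55.4, 88.8, 68.9 and 40.7 CPM in the control libraries, in the same order, and 32.7, 31.8, 28.1, 44.7 and 14.6 CPM in the WD libraries. The groups overlapped at WD9, and the log2 fold change was -0.97 (SE 0.27), not past the threshold. UNC13A over UNC13C was 1.66 to 4.12 in control and 5.58 to 12.9 in WD libraries, without overlap and with medians 2.67 times apart.

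SYT7, a calcium sensor of high affinity that acts in slow and asynchronous release, had 43.3, 72.9, 61.6, 55.6 and 52.6 CPM in control and 67.4, 35.3, 26.9, 34.0 and 23.8 CPM in WD libraries. WD6 stood among the controls and the other 4 WD libraries were below them (log2 fold change -0.65, SE 0.25, not past the threshold). SYT4 over SYT7 was 1.75 to 3.02 in control and 2.84 to 11.6 in WD libraries, and the groups overlapped at WD6. SYT9 over SYT7 overlapped as well, at 0.607 to 1.41 and 0.275 to 0.829. The medians of this ratio were 0.841 in control and 0.708 in WD libraries, a much smaller distance than that of SYT4 over SYT9.

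Of 87 genes listed for the release machinery and reported here, 18 were paired with an ID, and they include the 5 described here. The pairs come from a table ordered by the study's own p-values and cut at its head, so these 18 were picked by the comparison itself, and their share of low p-values has no meaning of its own. Of the 13 other genes, SYTL5 had a log2 fold change above 0 (0.56, SE 0.24) and 12 were below 0, with a median of -0.56. None of the 13 was past the edgeR threshold, 11 had an unadjusted p under 0.05 (beside 9.31% of all genes), and DESeq2 called 1 (beside 1.27%), the presynaptic adhesion molecule NRXN2. SYT7 was past the edgeR threshold without WD6 (log2 fold change -0.93), and SYT17 was without WD7 (-1.14). NRXN2 had 252 ± 22.8 CPM in control and 181 ± 23.4 CPM in WD libraries (SD, n = 5 each), a log2 fold change of -0.48 (SE 0.16). NAPB, a SNAP that helps to take SNARE complexes apart after fusion, was at -0.48 (SE 0.19). The synaptotagmins SYT2, SYT16 and SYT17 were at -1.44 (SE 0.51), -0.84 (SE 0.34) and -0.84 (SE 0.25). SYT4 was the only one of the 6 synaptotagmins with an ID whose estimate lay above 0. In the DESeq2 test, the adjusted p of SYT4, the largest among the 5 genes, was 0.0351, and that of UNC13C, the smallest outside the threshold among the 18, was 0.0742.

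**Figure D3:**
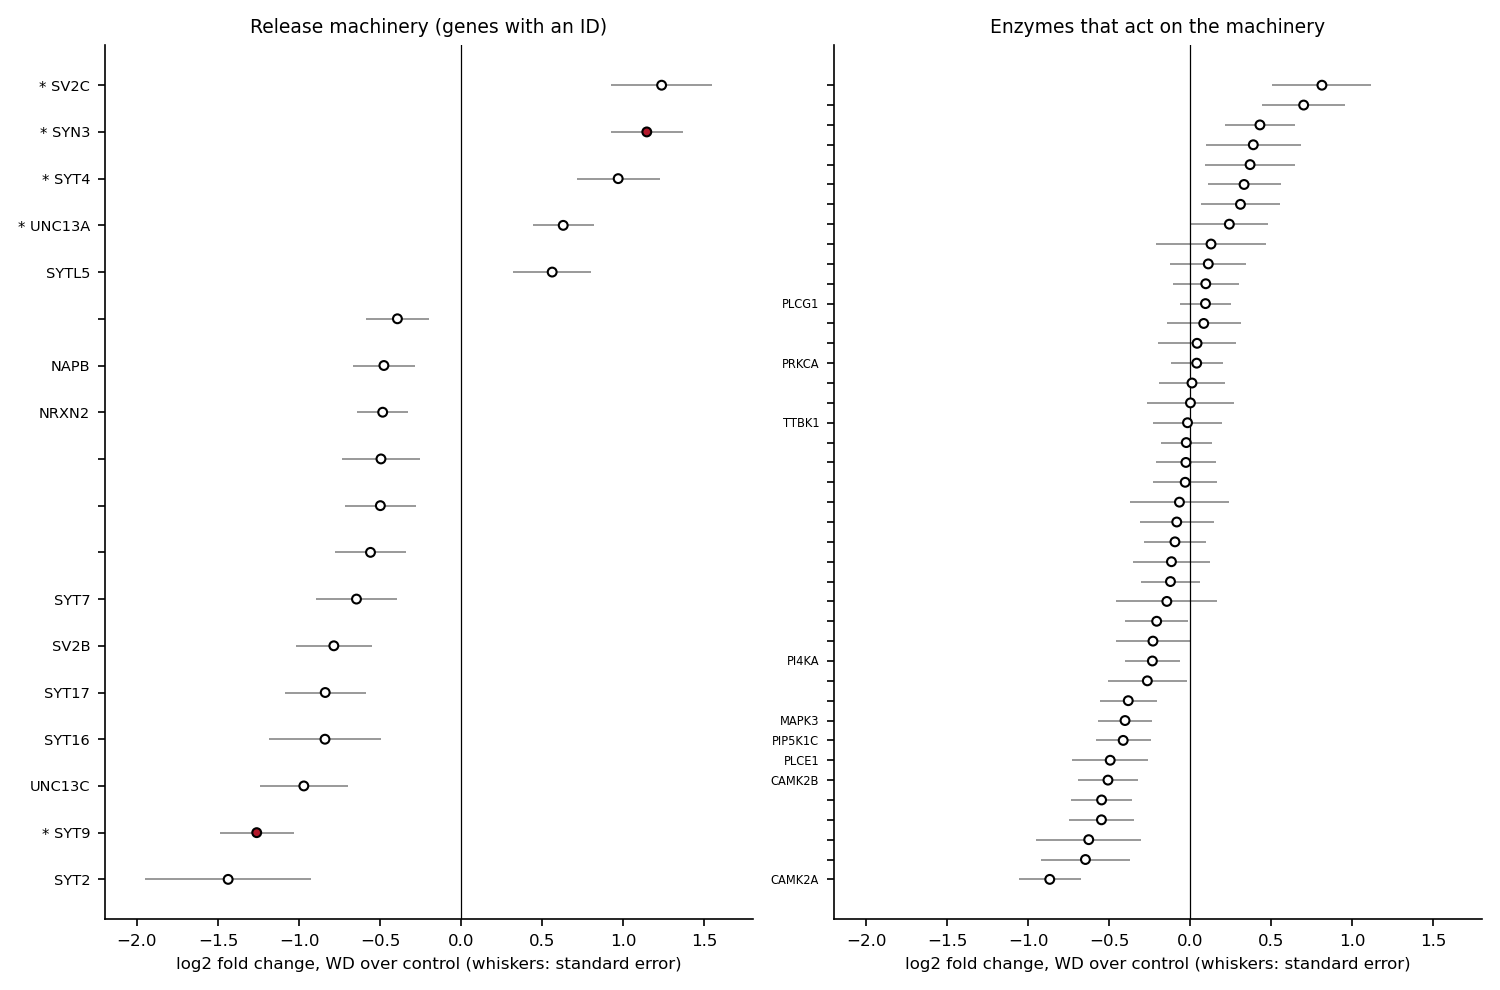
Log2 fold change of WD over control (x axis, whiskers are the standard error) for the 18 genes of the release machinery that have an ID (left, asterisks mark the 5 genes described here) and for the 41 enzymes that act on the machinery (right), with names for those given in the text. Filled points are past the edgeR threshold, which are SYT9 and SYN3 on the left. The left panel has few points near 0 because its genes come from the head of a table ordered by p.

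Enzymes that act on the release machinery were paired with IDs through tables that do not depend on p, and all 41 that are reported here passed the filter. None of these 41 was past the edgeR threshold (beside 0.499% of all genes), 11 had an unadjusted p under 0.05 (beside 9.31%), and DESeq2 called 1 (beside 1.27%). Their median log2 fold change was -0.03, with 17 above and 24 below 0, beside a median of 0.02 over all genes.

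Phospholipase C makes diacylglycerol, which activates both UNC13A and many forms of protein kinase C. Among 9 genes of phospholipase C and protein kinase C, 6 estimates were above 0, the values ran from -0.55 to 0.81 with a median of 0.04, and in the edgeR test 5 had an unadjusted p under 0.05 (beside 9.31% of all genes). PRKCA was at a log2 fold change of 0.04 (SE 0.16), PLCG1 at 0.09 (SE 0.16) and PLCE1 at -0.49 (SE 0.23), and the ends of the range were other genes.

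Of 11 kinases of synapsins and SNARE regulators, none was past the threshold in the edgeR test (5 had an unadjusted p under 0.05, beside 9.31% of all genes, and DESeq2 called 1, beside 1.27%), 9 had estimates below 0 and the median was -0.38. CAMK2A, a calmodulin-dependent kinase that phosphorylates synapsins, had 89.7, 86.3, 88.4, 87.2 and 68.2 CPM in control and 62.2, 49.4, 46.9, 46.0 and 28.8 CPM in WD libraries, and is named because it was the nearest of the 41 to the threshold. Its groups did not overlap, and its log2 fold change was -0.87 (SE 0.19, adjusted p = 0.0501 in edgeR's quasi-likelihood test). This adjusted p ran from 0.0122 to 0.155 when single libraries were left out, and was past the threshold without CON13 or WD6. CAMK2B was at -0.51 (SE 0.19) and MAPK3 at -0.40 (SE 0.16).

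The 3 calmodulins had log2 fold changes from -0.21 to 0.08, and the 6 kinases that include those of SV2 proteins had a median of -0.06, with TTBK1 at -0.02 (SE 0.21). The 8 phosphoinositide enzymes had a median of -0.03, with PI4KA at -0.23 (SE 0.17) and PIP5K1C at -0.41 (SE 0.17), and the 4 docking and scaffold enzymes had a median of 0.08. No gene of these groups was past the threshold in edgeR or DESeq2, and 1 phosphoinositide enzyme had an unadjusted p under 0.05.

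The granules that the machinery releases also hold peptides and processing enzymes, and 9 such genes were listed with these results known. Past the edgeR threshold were 5 of 9 (beside 0.499% of all genes). With single libraries left out, PTPRN was past it in 6 of 10 fits (not without CON2, CON3, CON4 or CON5) and PCSK2 in 9 of 10 (not without WD8). VGF, a granin-like precursor, had a log2 fold change of 3.99 (SE 0.36), PDYN, the dynorphin precursor, of 1.93 (SE 0.22), the convertase PCSK1 of 2.02 (SE 0.22) and the granule membrane protein PTPRN of 1.36 (SE 0.25). The convertase PCSK2 fell with -1.53 (SE 0.28). CHGA, CHGB, PCSK1N and CPE had values of 0.12 (SE 0.20), 0.10 (SE 0.20), -0.10 (SE 0.27) and 0.34 (SE 0.22) and were not past the threshold.

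Genes whose levels followed each of the 5 from library to library were sought with the group means removed, over all genes with a symbol, as Pearson r of log2 CPM in 10 libraries. For UNC13A they were the glutamate receptor subunit GRIN2B (r = 0.97), PTPRN (0.95) and the endoplasmic reticulum chaperone HYOU1 (0.95). For SYT4 they were PDE1A (0.95), SYCP3 (0.93) and HTR2A (0.91), and for SYT9 PIP4K2B (0.93) and SARAF (0.91). For SYN3 they were ZFHX2 (0.94), COG2 (0.87) and ZNF599 (0.87), and for SV2C ABCB11 (0.93), NINJ1 (0.91) and SPHKAP (0.83). Genes not named here were in many cases closer. Over all genes tested, GRIN2B, PTPRN and HYOU1 ranked 5, 17 and 18 for UNC13A. SARAF ranked 16 for SYT9, SPHKAP 25 for SV2C and ZFHX2 1 for SYN3. PTPRN was the only one of the genes named here that was past the threshold between the groups, and GRIN2B had a log2 fold change of -0.41 (SE 0.21) against 0.63 for UNC13A. Both genes of a pair come from the same library at each of the 10 points, with its depth and scaling, and many genes were searched, so these values are descriptions.

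Markers of cell types were summed per library. The magnocellular and neuronal markers SIM1, OTP, ARNT2 and CHGA summed to 432 to 580 CPM in control and 438 to 641 CPM in WD libraries, and the ranges overlapped. ARNT2 made up most of this sum (366 ± 39.2 CPM in control and 359 ± 60.1 CPM in WD libraries, SD, n = 5 each). Of these 4 markers 1 had a log2 fold change above 0, and OTP, a factor of the magnocellular lineage, was at 39.5 ± 12 CPM in control and 25.7 ± 7.24 CPM in WD libraries (SD, n = 5 each), with a log2 fold change of -0.58 (SE 0.24) that was not past the threshold. The markers of other neurones (GAD1, GAD2, TH, HDC and CHAT) summed to 24.7 to 42.1 CPM and 19.9 to 40.9 CPM. Oligodendrocyte markers summed to 134 to 295 CPM and 122 to 221 CPM. The 4 microglial markers (SPI1, CSF1R, IRF8 and PTPRC) all had log2 fold changes above 0, none of them past the threshold, and summed to 149 to 239 CPM in control and 172 to 518 CPM in WD libraries. Their log2 fold changes were 0.66 (SE 0.40) for SPI1, 0.62 (SE 0.26) for CSF1R, 0.98 (SE 0.30) for IRF8 and 0.90 (SE 0.27) for PTPRC. The 7 markers of endothelium and mural cells summed to 154 to 226 CPM and 189 to 321 CPM, with 6 of 7 log2 fold changes above 0 and none past the threshold. In the edgeR test, CSF1R, IRF8, PTPRC and the endothelial markers KDR and FLT1 had an unadjusted p under 0.05 (beside 9.31% of all genes). Among the markers of the other types, OTP, with its estimate below 0, was the only one that did. WD15 had the highest microglial sum and the highest endothelial and mural sum. It was also the WD library with the highest SYN3 and SV2C levels and the lowest SYT9 and UNC13A levels. The part of the cell mixture of WD15 in these levels was not tested. Without WD15 and CON13, which both had short fragments, the log2 fold changes were 0.94 (SE 0.21) for SYN3, 1.10 (SE 0.33) for SV2C, -1.22 (SE 0.24) for SYT9, 0.94 (SE 0.29) for SYT4 and 0.72 (SE 0.19) for UNC13A, and none was past the threshold.

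Across 22 other fits (12 other settings and 10 with 1 library left out), no gene changed its direction. The log2 fold change ran from 0.72 to 1.19 for SYT4, from -1.41 to -1.06 for SYT9, from 0.94 to 1.25 for SYN3, from 1.04 to 1.39 for SV2C and from 0.48 to 0.73 for UNC13A. The call varied more than the value, since SYT9 was past the threshold in 19 of 22 fits, SYN3 in 12 of 21, SYT4 in 2 of 22, SV2C in 2 of 21 and UNC13A in 1 of 22.

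**Figure D4:**
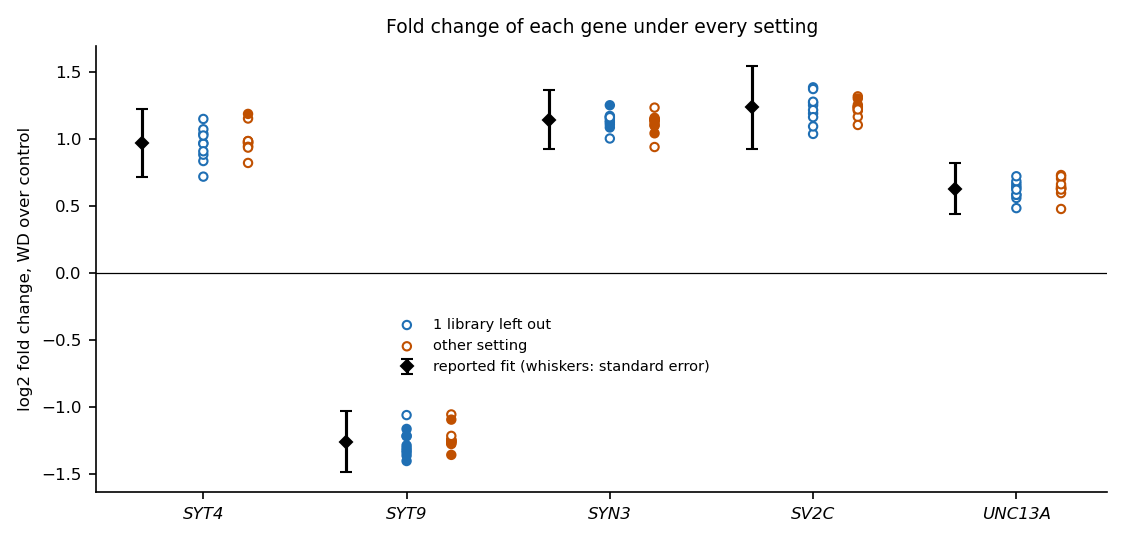
Log2 fold change of WD over control (y axis) of each gene (x axis) in the reported fit (black diamonds, whiskers are the standard error), with 1 library left out (blue) and under other settings (orange). Filled circles are past the threshold on the adjusted p of that fit. No circle crosses 0, and SYT9 has the most filled circles.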

How the data were processed

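Stranded libraries of ribosome-depleted RNA were aligned by the authors to the camel assembly Camdro2 with STAR and counted per gene with featureCounts. The deposited raw counts are whole read pairs per gene, without normalization. The second deposited file holds normalized signal, each count divided by 1 size factor per library (largest relative departure 5.4e-10), and served only for that check. The annotation release and strand setting are not given in the sources used here.

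Groups came from the labels. WD and control were compared with edgeR 4.0.16 in R 4.3.3 (quasi-likelihood F test, robust, TMM, filterByExpr), with Benjamini-Hochberg adjustment over 14432 genes and a threshold of 0.05. The SE is the log2 fold change divided by the square root of F. DESeq2 1.42.0 and the other settings were alternatives. Ratios used raw counts, and log2 CPM a prior count of 0.5. Each library came from a different camel, so p-values measure the spread between animals together with that of library preparation.

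The members and lists were chosen with earlier results of these data known. Symbols came from the study's supplementary tables, which pair 4316 of 22444 IDs, and unpaired genes are not analysed here. Results on some genes, list members among them, are not reported here, so counts over the lists do not cover the full lists. Genes were named as members, as list genes past the threshold or among the 3 of most CPM in their group (used only to choose well-counted genes, since CPM is not scaled by length), or as up to 3 most similar genes per member. SYT2, SYT7, SYT16, SYT17, SYTL5, SV2B, UNC13C, TIMP3, CAMK2A, KDR and FLT1 were named after their values were seen. No count of a member came within 1% of that of another ID in every library.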

Additional observations from a re-analysis of the deposited data

Results flagged for a closer look

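Single libraries far from the rest of their group were sought with Dixon's rule in 26 groups of 5 libraries, which chance marks in about 1 of 20 groups, and 2 were found. SYN3 was at 8.37 CPM in CON13, below the other controls, on 7 read pairs. The ratio of SYT9 over SYT7 was 0.275 in WD6, below the other WD libraries, and SYT7 was at 67.4 CPM there.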

How the results depend on the processing

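No paired analysis was possible because the groups share no replicate numbers. The number of genes past the threshold, 72 as reported, was 209 with DESeq2's Wald test, 155 with log2 depth as a covariate, 33 without CON13 and WD15 and 10 with library totals only, and 40 (without CON3 and 42 without CON5) to 102 (without WD6) with 1 library left out. The members past the threshold were 2, and became 5 with DESeq2, 3 with the RNA integrity number or log2 depth as a covariate, 1 with at least 10 counts in every library (which drops SYN3 and SV2C from the test) and 0 both with library totals only and without CON13 and WD15. They were 0 (without CON5) to 2 with 1 library left out. Of the 41 enzymes 0 were past the threshold, and 1 (CAMK2A) was with DESeq2, DESeq2's size factors, library totals without the dominant IDs, at least 10 counts, a fit that was not robust, the short-fragment or log2 depth covariate, and without CON13 and WD6. It was 0 to 1 (without CON13 or WD6) with 1 library left out. The cause of these changes was not tested. Adding 0.5 to both counts left the 4 ratios to SYT9 at 2.90 to 5.13 times between medians. With DESeq2's size factors, 13 of the 15 most similar genes were kept. In CON13, SYN3 and SV2C were counted with 7 and 5 read pairs.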
